A study of Homo sapiens with 4 samples.

Results

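The genes described here are nuclear genes for proteins of the mitochondrion whose spans held at least 1 RNA peak of the Flag-AKT1 E17K immunoprecipitate. Members were the protein-coding genes of the GRCh38 annotation whose symbol starts with MRPL, MRPS, NDUF, ATP5, UQCR, TIMM, TOMM, SLC25 or COX and a digit, and a peak was given to a gene when it overlapped its span by at least 1 bp. Of 255 such genes, 59 held a peak, out of 1708 protein-coding genes with a peak, and these 59 shared 106 of the 4838 peaks. COX1, COX2 and COX3 match the letters of the rule but are encoded by mitochondrial DNA, and of these COX1 held a peak, which leaves 58 of 252 nuclear genes with 105 peaks. By function, 17 of the 58 belonged to the mitochondrial ribosome, 11 to complex I, 2 to complex III, 5 to complex IV, 8 to complex V, 10 to the import machinery and 5 to the carriers of the inner membrane.

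RNA immunoprecipitation and sequencing (RIP-seq) recovers RNA that is pulled down together with a tagged protein. MDA-MB-231, a triple-negative breast cancer cell line, was transfected with a plasmid for Flag-tagged AKT1 with the E17K mutation, a gain-of-function change in the lipid-binding domain of this kinase, or for Flag-tagged wild-type AKT1 (WT), so the cells also had their own AKT1. From each transfection there was 1 library of the anti-Flag immunoprecipitate and 1 of the input lysate, 4 in all, made after depletion of ribosomal RNA, and 1 peak list per plasmid was deposited. With 1 library per group, no difference between plasmids has a replicate check and none was tested. Every fold below is the number of immunoprecipitate reads over the number of input reads in the same peaks, without scaling for library depth, which the lists do not give. The Flag-AKT1 E17K list held 484463 immunoprecipitate and 248412 input reads, a ratio of 1.95, and its median protein-coding gene had a fold of 2.14. A fold is therefore read against this list level and not against 1. Intervals are 95% Wilson intervals of the immunoprecipitate share, turned into folds. They cover counting error only, and reads without molecular identifiers are not independent molecules.

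Mitochondria make most of the ATP of a cell by oxidative phosphorylation. Electrons pass through complexes I, III and IV of the inner membrane, protons are pumped, and complex V, the ATP synthase, uses the gradient. Nearly all of the proteins involved are encoded in the nucleus, translated in the cytosol and imported through the TOM complex of the outer and the TIM complexes of the inner membrane, whereas a few core subunits are made inside by the mitochondrial ribosome. SLC25 carriers move metabolites, nucleotides and ions across the inner membrane. The messenger RNAs of many of these proteins are found at the mitochondrial surface, and AKT signalling is known to act on energy metabolism.

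Promoters of genes of this class are known for sites of NRF1 (nuclear respiratory factor) and of ETS factors. The sequences below show the NRF1 core in 3 members whose RNA held peaks, and 25 bases on either side where these lie upstream of the start. They are RefSeq sequence of GRCh38.p14, written 5′ to 3′ on the strand of the gene, and capitals mark the letters GCGCATGCG. ATP5F1C, for the gamma subunit in the central stalk of the ATP synthase, has the core at 22 bases before its start (chr10:7788130-7788176, plus strand). ATP5PF, for a subunit of the peripheral stalk, has it at 120 bases (chr21:25735141-25735199, minus strand), and MRPL17, for a protein of the large mitoribosomal subunit, at 81 bases (chr11:6683388-6683446, minus strand), with a second copy at 43 bases that lies outside the printed window.
ATP5F1C: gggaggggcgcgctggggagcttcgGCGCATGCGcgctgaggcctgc
ATP5PF: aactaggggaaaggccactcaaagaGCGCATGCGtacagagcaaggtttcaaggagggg
MRPL17: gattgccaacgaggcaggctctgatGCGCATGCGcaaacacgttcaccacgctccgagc

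These letters were searched on both strands of the 250 bases before the start in 15842 promoters of protein-coding genes, of which 2.37% held them. Of the 216 members with a promoter in the table, 15 held them, or 6.94%, and so did 4 of the 43 that also had a Flag-AKT1 E17K peak (9.3%), the fourth being TOMM7, on the opposite strand. AAGATGGC, a YY1 core, stood in 1.39% of all promoters and 3.7% of member promoters. ACCGGAAG, an ETS core, stood in 2.53% of all, in 7.41% of member promoters and in 1 of the 43 with a peak, NDUFA13. GGGCGGGG, an SP1 core, was equally common in all promoters (30.7%), member promoters (30.1%) and those with a peak (30.2%). These matches are a description of the promoters and not of binding.

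The lists cover the genome unevenly, which decides which members could be seen at all. The strand label of a peak was opposite to the strand of its gene in 3169 of 3181 Flag-AKT1 E17K peaks that lay in 1 protein-coding gene of known strand (99.6%), and in 66 of 66 such peaks of members. Only 23 combinations of chromosome and label had 10 or more peaks. Genes on these were called measurable, a setting chosen after the peaks had been seen. Of 136 measurable members, 55 held a peak (40.4%), beside 1581 of 10527 measurable protein-coding genes (15%) and 27 of 43 measurable genes for cytosolic ribosomal proteins (62.8%). Among 37 measurable genes of a list of other mitochondrial proteins outside the rule, 14 held a peak (37.8%). A gene with no peak has no count in the list, so a low RNA level and low recovery cannot be told apart. A listed peak alone does not show recovery above input either. Reads were not scaled for library depth, and 22 of the 4838 peaks (0.455%) had a fold under 1.

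The share of measurable genes with a peak was 7 of 11 in complex V (63.6%), 9 of 15 in import (60%) and 2 of 3 in complex III (66.7%). It was 11 of 25 in complex I (44%), 4 of 11 in complex IV (36.4%), 17 of 50 in the mitochondrial ribosome (34%) and 5 of 21 among the carriers (23.8%). Within the mitoribosome, 13 of 33 measurable MRPL genes of the large subunit held a peak (39.4%) and 4 of 17 measurable MRPS genes of the small subunit (23.5%). None of the 8 NDUFAF genes, which encode assembly factors rather than subunits of complex I, held a peak, and 4 of them were measurable. The 95% Wilson intervals of the subgroups overlapped, least between the carriers (10.6% to 45.1%) and import (35.7% to 80.2%) or complex V (35.4% to 84.8%). The readthrough genes NDUFC2-KCTD14 and ATP5MF-PTCD1, which span neighbouring genes, count here as genes of their own. They share peaks with NDUFC2 and ATP5MF, so the genes of complexes I and V are not all independent, as the intervals assume.

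**Figure D1:**
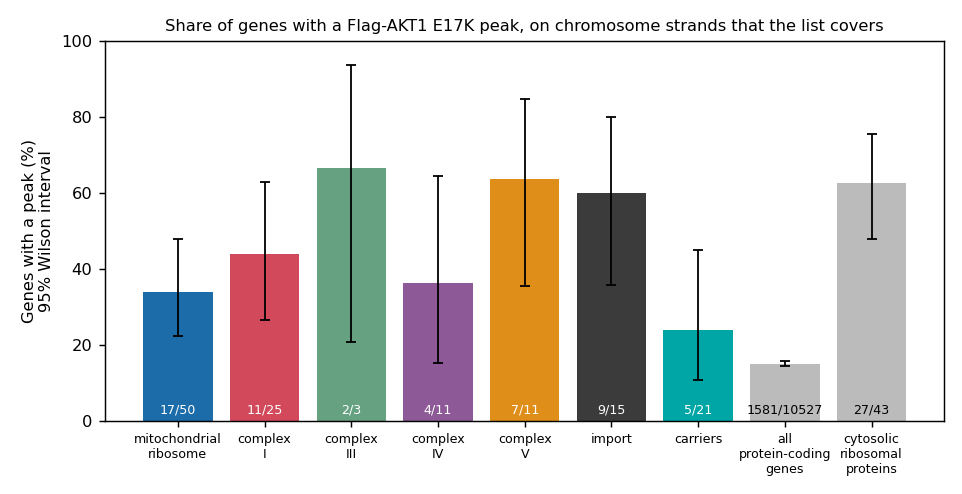
Share of measurable genes with at least 1 Flag-AKT1 E17K peak, in percent, by subgroup, with all protein-coding genes and cytosolic ribosomal proteins in grey. Bars start at 0, error bars are 95% Wilson intervals and the fractions give genes with a peak over measurable genes. Readthrough genes that share peaks with another member count as genes of their own. Complex V (7 of 11) and import (9 of 15) stood near the cytosolic ribosomal proteins (27 of 43), and the carriers (5 of 21) had the lowest share of the 7 subgroups.

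Over their 105 peaks the nuclear members held 8699 immunoprecipitate and 4147 input reads, a pooled fold of 2.1 [2.02–2.18]. The same ratio was 1.95 [1.94–1.96] over all protein-coding genes with a peak. That total includes AKT1, the gene on the plasmid, whose 73374 immunoprecipitate and 48883 input reads lower the ratio. It was not computed without AKT1. The medians were closer, at 2.2 in the nuclear members with quartiles of 1.87 and 2.37, beside 2.14 with quartiles of 1.91 and 2.47 over all genes. Of the 58 nuclear members, 31 lay above the median of all genes. Compared with genes of the same chromosome and label, 31 of 60 pairs of a member and a strand were above the strand's median and 29 below, with a median ratio of 1.01. As a group, then, these RNAs had about the fold of the list. Median depth was also near that of the list, with 125 immunoprecipitate and 55.5 input reads per gene in the nuclear members and 124 and 59 in all genes. Per kilobase of peak the median input level was 64.6 reads in nuclear members, 53.7 in all genes and 224 in cytosolic ribosomal protein genes.

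**Figure D2:**
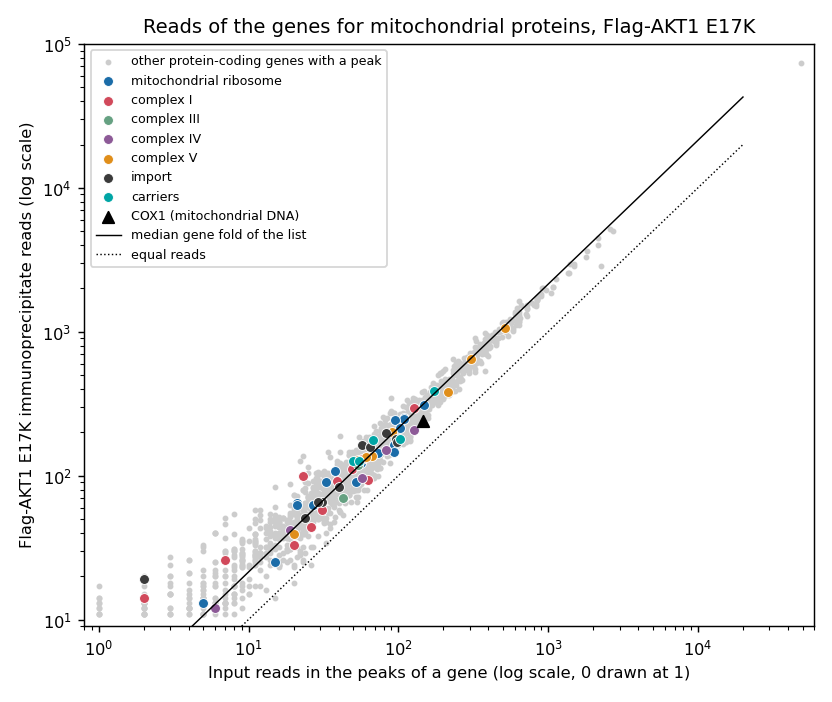
Immunoprecipitate reads against input reads of each gene in the Flag-AKT1 E17K list, both on log scales, with 1 point per protein-coding gene and members coloured by subgroup. The solid line is the median fold of 2.14 and the dotted line marks equal reads. From 30 immunoprecipitate reads up, members scatter around the solid line within the grey cloud. Under 30 reads their median fold was 3.16, beside 2.6 for all genes. The isolated point at the upper right is AKT1 itself.

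Few members stood out singly. A fold of at least 3 was reached by 6 of the 59 members, beside 207 of 1708 genes in the list (12.1%). These 6 were TIMM23B, NDUFB9, NDUFC2, NDUFA5, MRPL36 and MRPL13, and each had 99 or fewer immunoprecipitate reads. Median folds were higher at low depth: the median over all genes was 2.6 under 30 immunoprecipitate reads, 2.23 at 30 to 99, 2.12 at 100 to under 300 and 2.05 at 300 or more. The members had medians of 3.16 (6 genes), 2.12 (19 genes), 2.21 (29 genes) and 2.08 (5 genes) in the same classes. A two-sided Fisher's exact test of each gene's reads against all other reads of the list, adjusted by Benjamini-Hochberg over 1708 genes, compares the 2 libraries and not conditions. It called more immunoprecipitate reads in 47 genes (2.75%), of which 1 was a member, and fewer in 3 genes (0.176%), of which none was a member. At an unadjusted p under 0.05 it marked 6 members and 244 genes in all (14.3%), and those 6 were NDUFC2, TOMM40, TIMM23B, MRPL12, MRPL21 and SLC25A32.

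**Figure D3:**
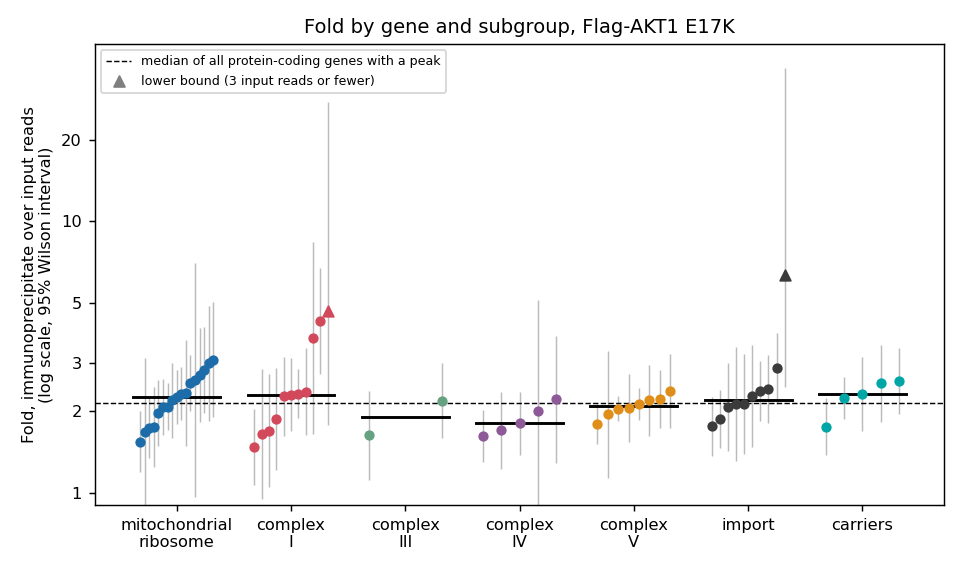
Fold of each nuclear member by subgroup on a log scale, ordered by fold within the subgroup, with 95% Wilson intervals in grey. Black bars are subgroup medians, the dashed line is the median of all protein-coding genes with a peak (2.14), and triangles are lower bounds. Complex IV lies lowest, with 4 of 5 genes under the line, and the highest points in complex I and import have the widest intervals.

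Complex I takes electrons from NADH and is the largest complex of the chain. Its 11 genes with a peak held 899 immunoprecipitate and 422 input reads in 15 peaks, a pooled fold of 2.13 [1.9–2.39], and 7 of the 11 lay above the list median. Their folds ran from 1.48 to 4.67, a wider range than in any subgroup but import. NDUFC2 and the readthrough gene NDUFC2-KCTD14, which share peaks, are both among the 7 above the median.

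NDUFC2, an accessory subunit of the membrane arm, was the member that the test called. It had 99 immunoprecipitate and 23 input reads, a fold of 4.3 [2.74–6.75] with an adjusted p of 0.0184 by Fisher's exact test. Its reads came from 3 narrow peaks at chr11:78069741-78069945 with 32 and 4 reads, chr11:78073021-78073225 with 52 and 16, and chr11:78079581-78079785 with 15 and 3. All 3 peaks were above the list median, at folds of 8, 3.25 and at least 5. The call depended on the setting: adjusted p was 0.0526 without the AKT1 peaks, 0.0567 against genes of the same chromosome and label, and 0.0686 by an exact binomial test against the median fold. The same peaks also lie in the readthrough gene NDUFC2-KCTD14, which had 2 further peaks over the KCTD14 end with 184 and 93 and with 14 and 12 reads. Those were at 1.98 and 1.17, so that the readthrough gene as a whole stood at 2.32, with 297 immunoprecipitate and 128 input reads.

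The other genes of complex I lay on both sides of the list. NDUFA13, an accessory subunit, had 131 and 57 reads (2.3 [1.69–3.13]) and NDUFA8 had 111 and 49 (2.27 [1.62–3.17]). The core subunits, those that bacteria also have, lay above and below the list median: NDUFS8 had 92 and 39 reads (2.36), NDUFS3 58 and 31 (1.87), NDUFS1 33 and 20 (1.65), and NDUFV1, which binds FMN and oxidises NADH, 93 and 63 (1.48 [1.07–2.03]). NDUFV1 had the lowest fold of all members. At the other end, NDUFB9 had 14 and 2 reads, at least 4.67-fold, and NDUFA5 had 26 and 7 (3.71 [1.65–8.37]), both on few reads. NDUFA2 had 44 and 26 (1.69), in peaks that also lie in TMCO6.

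Complexes III and IV pass electrons from ubiquinol through cytochrome c to oxygen. UQCRB, a subunit of complex III near its ubiquinone site, had 118 immunoprecipitate and 54 input reads in 2 peaks (2.19 [1.59–3.01]). UQCRH, the hinge protein next to cytochrome c1, had 70 and 43 in 1 (1.63 [1.12–2.37]). Their intervals overlapped, and together they stood at 1.94 [1.52–2.47].

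Complex IV had the lowest pooled fold of the nuclear subgroups, 1.73 [1.5–2] on 508 immunoprecipitate and 293 input reads, and the lowest median, 1.81. Of its 5 genes, 1 was above the list median. COX6C, an accessory subunit, had 207 and 128 reads (1.62 [1.3–2.02]) and COX6B1, which faces the intermembrane space, had 150 and 83 (1.81 [1.38–2.36]). COX7A2L, which takes part in supercomplex assembly, had 97 and 57 (1.7), and the copper-chain protein COX19 had 12 and 6 (2). The 1 gene above was COX15, for heme A synthesis, with 42 and 19 reads (2.21), but its 2 peaks carry the label of the gene's own strand and also lie in ENTPD7. None of these genes passed the test. The peak of COX1, the catalytic subunit that mitochondrial DNA encodes, had 238 and 147 reads (1.62 [1.32–1.99]), the same fold as COX6C, and has the highest adjusted p-value that the authors list for Flag-AKT1 E17K, 0.0578.

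Complex V had the deepest members. ATP5F1A, the alpha subunit of the catalytic head, held 1057 immunoprecipitate and 518 input reads in 1 peak of 19320 bp (chr18:46078831-46098150), which covers 80.6% of its span, at a fold of 2.04 [1.84–2.27]. ATP5PB, of the peripheral stalk, held 648 and 304 reads (2.13 [1.86–2.44]) in 3 peaks with folds of 1.91 to 2.45. ATP5F1C, the gamma subunit shown above by its promoter, held 384 and 214 reads (1.79 [1.52–2.12]), and its 5 peaks, between 1.38 and 1.93, were all under the median peak of the list, 2.18. These 3 genes had the narrowest intervals of complex V, and their folds lay within 1.79 to 2.13.

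The remaining genes of complex V had like values. ATP5PO had 138 and 67 reads (2.06), ATP5PF 128 and 54 (2.37 [1.73–3.25]) and ATP5MG 39 and 20 (1.95). ATP5MF had 134 and 61 (2.2), made of a peak with 121 and 46 reads (2.63) and one with 13 and 15 (0.867). The readthrough gene ATP5MF-PTCD1 shares these peaks and had 201 and 91 reads in 4 (2.21), of which 54 and 29 lie in a peak of the other label that also overlaps CPSF4. Counting shared peaks once, the 18 peaks of complex V stood at 2.05 [1.91–2.19], with 2595 and 1268 reads. Of the 8 genes, 3 were above the list median, of which ATP5MF and ATP5MF-PTCD1 share peaks.

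The mitochondrial ribosome translates the few proteins that mitochondrial DNA encodes. Its 17 genes held 2358 immunoprecipitate and 1094 input reads, a pooled fold of 2.16 [2.01–2.32] and a median of 2.26, with 10 of 17 above the list median. The large subunit had 9 of 13 genes above and a pooled fold of 2.18 [2.01–2.37], the small subunit 1 of 4 and 2.07 [1.79–2.39]. The intervals of the subunits overlapped, and a difference between them was not tested.

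MRPS27, of the small subunit, had the most reads of the ribosome, 310 and 149 (2.08 [1.71–2.53]) in 4 peaks between 1.65 and 2.57. MRPL49 had 253 and 109 (2.32), MRPL17 had 246 and 109 (2.26) and MRPS24 had 214 and 103 (2.08), the last in a peak that also lies in the readthrough gene URGCP-MRPS24. These 4 differed by less than their intervals. MRPL12, which binds the factors of translation at the stalk, had 242 and 95 reads (2.55 [2.01–3.23]) with an unadjusted p of 0.0286 and an adjusted p of 0.261 by Fisher's exact test. MRPL21 had 108 and 38 (2.84 [1.97–4.1]), where its 3 peaks spread from 1.36 to 4.27.

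The range of the ribosome ran from MRPL11 to MRPL36. MRPL36 had 65 and 21 reads (3.1 [1.9–5.04]) and MRPL13 had 63 and 21 (3 [1.84–4.89]). MRPL11, at the base of the stalk, had 145 and 94 (1.54 [1.19–2]), with 1 of its 2 peaks under 1 at 13 and 14 reads (0.929). That interval does not include the list median of 2.14, and the adjusted p of MRPL11 by Fisher's exact test was 0.425. MRPL15 had 90 and 33 reads (2.73), with a small peak of 14 and 2 (at least 4.67-fold) beside a larger one of 76 and 31 (2.45). The others ranged from 1.67 in MRPS33 to 2.6 in MRPS28, the latter on 13 and 5 reads.

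The import genes held 1155 immunoprecipitate and 525 input reads, a pooled fold of 2.2 [1.98–2.44]. The outer-membrane TOMM genes (2.23 [1.93–2.58]) and the TIMM genes (2.17 [1.88–2.51]) had overlapping intervals. TOMM40, the channel of the outer membrane, had 164 and 57 reads in 1 peak (chr19:44900601-44901200), a fold of 2.88 [2.13–3.88] with an unadjusted p of 0.0105 and an adjusted p of 0.161 by Fisher's exact test. Its small partner TOMM5 had 197 and 83 reads (2.37 [1.84–3.07]), and TOMM7 had 51 and 24 (2.12). TOMM34, a cytosolic cochaperone of import, had 172 and 98 (1.76 [1.37–2.25]), from neighbouring peaks at 1.48 and 2.76.

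Among the inner-membrane genes, TIMM10, a chaperone of the intermembrane space, had 180 and 96 reads (1.88 [1.46–2.4]). TIMM17A, TIMM10B and TIMM8B stood at 2.08, 2.13 and 2.28, on 66 to 83 immunoprecipitate reads. TIMM23, the channel subunit, had 157 and 65 reads (2.42 [1.81–3.22]). TIMM23B, a near-identical copy of it, had 19 and 2 reads, at least 6.33-fold, with an unadjusted p of 0.0192 and an adjusted p of 0.212 by Fisher's exact test. Reads of these copies may be split between them, so both folds are uncertain.

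The 5 carriers held 996 immunoprecipitate and 448 input reads, a pooled fold of 2.22 [1.99–2.49] and a median of 2.31, with 4 above the list median. SLC25A37, the iron carrier mitoferrin, had 387 and 173 reads (2.24 [1.87–2.68]) in wide peaks of 2600 and 4400 bp with folds of 2.34 and 2.17. SLC25A32, which carries folate and flavin, had 176 and 68 (2.59 [1.96–3.42]), and its 6 peaks lay between 2.12 and 3.6. SLC25A22, a glutamate carrier, had 179 and 102 (1.75 [1.38–2.24]), and its 5 peaks lay between 1.32 and 2.3. These peak ranges of SLC25A32 and SLC25A22 overlapped between 2.12 and 2.3, and the intervals of the genes overlapped too. SLC25A1, the citrate carrier, had 127 and 50 reads (2.54) and SLC25A13, an aspartate-glutamate carrier, 127 and 55 (2.31).

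Single peaks spread more than genes. Of the 106 member peaks, 9 had a fold of at least 4, beside 413 of 4838 peaks (8.54%), and 6 of those 9 rested on 3 or fewer input reads. Below 1 were 2 member peaks, those of MRPL11 and ATP5MF named above, of 22 in the whole list (0.455%). The Fisher's exact test per peak called 13 peaks of the list in either direction (0.269%) and no member peak, with a lowest adjusted p of 0.207 among members. In a simulated list this test found 63 of 200 peaks changed 2-fold, so most peaks without a call could differ that much. It marked 7 member peaks and 425 peaks in all (8.78%) at an unadjusted p under 0.05. In 26 members with more than 1 peak the highest fold was a median of 1.73 times the lowest. The intervals of 2 peaks of 1 gene lay apart in 3 of these 26, ATP5MF, ATP5MF-PTCD1 and NDUFC2-KCTD14, the last 2 of which span neighbouring genes.

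Peaks of members lay toward the ends of their genes, as did those of the whole list. Of 66 peaks with a known gene strand and 1 protein-coding gene, 44 had their centre in the part of the span nearest the end, with spans cut into 3 equal parts (66.7%), 21 in the middle and 1 in the part nearest the start. Over all protein-coding genes the shares were 60.5%, 26.4% and 13% of 3169 peaks. In the cytosolic ribosomal protein genes, 16 of 42 peaks were in the part nearest the start (38.1%) and 15 in that nearest the end (35.7%). Within 1000 bp of the annotated end lay 26 of the 66 member peaks (39.4%), 15.4% of all peaks and 23.8% of the ribosomal protein peaks. Median spans differed too, at 11.2 kb for member genes, 28.1 kb for all and 4.86 kb for ribosomal protein genes, and the part of span length in these shares was not tested. Exons were not used here.

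Other nuclear genes of mitochondrial function were counted in the same way. Of 62 genes of that list, which lie outside the naming rule, 14 held a Flag-AKT1 E17K peak, with 6767 immunoprecipitate and 3212 input reads and a pooled fold of 2.11 [2.02–2.2]. Their median fold was 2.06, and 5 of the 14 lay above the median of all genes. HSPA9, the import motor chaperone, had 2965 and 1404 reads (2.11), the channel VDAC1 had 1084 and 531 (2.04), and LRPPRC, which stabilises mitochondrial transcripts, had 437 and 170 (2.57 [2.15–3.07]). UQCC1, an assembly factor of complex III, was the 1 gene of that list that the test called, with 273 and 88 reads, a fold of 3.1 [2.44–3.94] and an adjusted p of 0.00817 by Fisher's exact test. The cytosolic ribosomal protein genes stood at 1.94 [1.9–1.99] over 31 genes, on 19568 and 10079 reads.

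The Flag-AKT1 WT list shared few genes with the Flag-AKT1 E17K list. Of all protein-coding genes, 20 held a peak in both, which is 1.17% of the 1708 and 7.33% of the 273 with a WT peak. Of the members, 9 had a WT peak and none of these was among the 59. The Flag-AKT1 WT list is smaller, of 808 peaks with 51123 immunoprecipitate and 52223 input reads (0.979), and 6 combinations of chromosome and label had 10 or more peaks, so that 24 members were measurable in it. Of these, 8 held a peak (33.3%), beside 215 of 2152 measurable protein-coding genes (9.99%). Only 12 members were measurable in both lists. Because the lists cover different chromosome strands, a peak in 1 list and its absence from the other cannot be told apart from this coverage, and the folds of the 2 lists start from different levels.

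None of the 9 genes was called against the reads of its list, and 7 of them had folds above the list's ratio of 0.979. The lowest of these 7, TOMM6, was at percentile 71.4 of the folds of all 273 protein-coding genes with a WT peak. ATP5F1B, the catalytic beta subunit of the ATP synthase, had 260 immunoprecipitate and 323 input reads (0.805 [0.684–0.948]), with an unadjusted p of 0.0199 and an adjusted p of 0.179 by Fisher's exact test, the lowest of the 9. TOMM6 had 166 and 151 reads (1.1), and SLC25A6, an ADP/ATP carrier, had 141 and 126 (1.12) in 4 peaks between 0.902 and 2.07. TIMM17B had 64 and 57 (1.12), NDUFB11 58 and 51 (1.14) and MRPS6 40 and 30 (1.33).
Fewest reads were in COX7B2 with 33 and 20 (1.65 [0.953–2.86]), TIMM8A with 32 and 39 (0.821) and ATP5ME with 22 and 16 (1.38). The test per peak called 25 of 808 peaks of this list (3.09%) and no member peak.

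**Figure D4:**
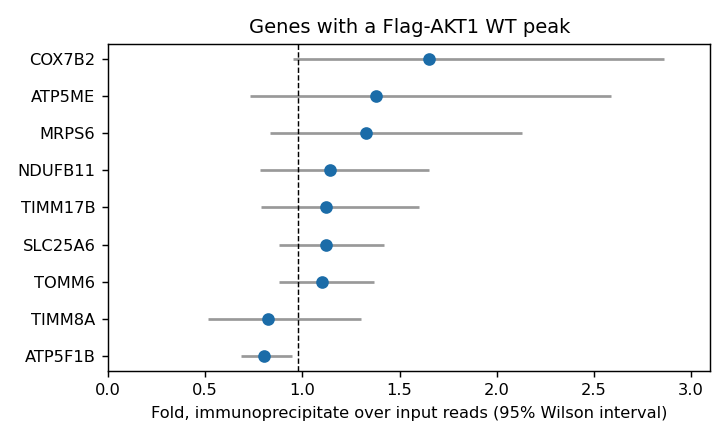
Fold of the 9 members with a Flag-AKT1 WT peak on a linear axis, with 95% Wilson intervals. The dashed line is the median peak of this list, 0.976. Intervals of 8 genes include the line, and that of ATP5F1B (0.684 to 0.948) lies under it.

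For the cells themselves, peaks lay in markers of this mesenchymal line. These were VIM (2032 immunoprecipitate and 1083 input reads), EGFR (586 and 280), CD44 (39 and 22) and CAV1 (27 and 11). None lay in ESR1, PGR and ERBB2, which were measurable. Only 15% of measurable protein-coding genes held a peak, so the lack of one in a single gene says little. EPCAM and CDH1 were not measurable. AKT1 had 5 Flag-AKT1 E17K peaks with 73374 and 48883 reads and no Flag-AKT1 WT peak, and reads of the plasmid and of the cells' own gene cannot be told apart. Both plasmids carried AKT1, and its absence from the smaller Flag-AKT1 WT list is not read as absence of the RNA from that immunoprecipitate.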

How the data were processed

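MDA-MB-231 cells carried a plasmid for Flag-AKT1 E17K or for Flag-AKT1 WT, and RIP-seq gave 1 anti-Flag immunoprecipitate and 1 input library for each. The authors deposited 1 peak list per plasmid with read counts, whole and unnormalized, for immunoprecipitate and control in each peak. Following the sample labels, the control was read as input, although the series description speaks of IgG. The p-values and log odds deposited by the authors were not used, except their adjusted p-value as an alternative filter of 0.001 and 1 value quoted; reads per kilobase as deposited were not used. The submitters' processing notes name Bowtie2 2.2.8 and the build hg18, but all 5 peaks of AKT1 and nearly all labels matched GRCh38 genes, so that build was used. The peak caller and its filters are not given in the sources used here. Library totals were not used, so depth is known only inside peaks.

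Peaks were matched to RefSeq spans of genes in GRCh38.p14, without exons, by 1 bp of overlap. Gene strands came from the RefSeq promoter table. Reads were summed per gene, and pooled values count a shared peak once. A control of 3 reads or fewer was counted as 3, and the fold is then a lower bound. Genes and peaks were tested with Fisher's exact test (two-sided) against the rest of their list (scipy 1.17.1) with Benjamini-Hochberg adjustment at 0.05. In simulated lists with 200 peaks changed 2-fold, the test per peak recovered 63 (Flag-AKT1 E17K) and 98 (Flag-AKT1 WT). False calls numbered 2 and 4. It recovered all 23 and 18 changed peaks with at least 300 reads of both libraries together. A peak or gene with fewer reads can therefore differ from its list 2-fold without a call. Alternatives were the peak centre in the span, no other protein-coding span, the label relative to the gene strand, a fold of at least 4, the authors' adjusted p-value, at least 50 immunoprecipitate reads, 1 read added to both counts, the median of the same chromosome and label, an exact binomial test, and leaving out the AKT1 peaks. Python 3.11.15, numpy 2.4.6, pandas 2.3.3 and matplotlib 3.10.9 were used.

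The genes named are, per subgroup, the 5 with the most immunoprecipitate reads and those of highest and lowest fold with at least 30 such reads, every gene that a test called, that had a WT peak or that had a peak of at least 4-fold. Others were named after their values were seen. Members and lists were chosen with earlier results of these data known.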

Additional observations from a re-analysis of the deposited data

How the results depend on the processing

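The number of members with a Flag-AKT1 E17K peak, 59, was 53 with the peak centre in the span, 51 without peaks that lie in another protein-coding span, 57 at an adjusted p-value of the authors of at most 0.001 and 42 with a label opposite to the gene strand. It was 1 with a label equal to the gene strand (COX15) and 9 with peaks of at least 4-fold. The 1 member called by the Fisher's exact test per gene, NDUFC2, became 0 members in each of 4 alternatives: the exact binomial test, leaving out the AKT1 peaks, genes of the same chromosome and label only, and no other protein-coding span, which removes all 3 NDUFC2 peaks. Over all genes, calls of more reads went from 47 to 14, 20, 17 and 44 in that order, and of fewer from 3 to 22, 8, 6 and 3. The median fold of the nuclear members over that of the list, 1.03, became 0.978 with only labels opposite to the gene strand, an alternative chosen after seeing the data, which also leaves out the genes whose strand is not in the table. That of complex III went from 0.892 to 1.02 with the peak centre in the span, which leaves out UQCRH, and that of complex V from 0.981 to 1.02 with at least 50 immunoprecipitate reads. Complex IV kept a pooled fold of 1.69 to 1.77 and a median under that of the list, 0.811 to 0.896 of it, in every alternative run. However, COX15, the only gene of complex IV above the list median, drops out in some alternatives. These are no other protein-coding span, a label opposite to the gene strand and at least 50 immunoprecipitate reads. Folds of single members stayed within their intervals when 1 read was added to both counts. At these depths 1 read cannot move a fold out of its interval, so this was no check. No paired analysis was possible because each group has 1 library. Under 30 immunoprecipitate reads, as in 6 members, the interval of a fold is wide, and no fold of the class can be separated from the list at a difference much smaller than its interval.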
